A study of Mus musculus with 2 samples.

Results

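The Sox genes of the SoxC, SoxD and SoxE subgroups comprised 9 genes among the 21900 protein-coding genes of the reference gene table (GRCm38.p6), and were chosen by their symbols: Sox4, Sox11 and Sox12 (SoxC), Sox5, Sox6 and Sox13 (SoxD), and Sox8, Sox9 and Sox10 (SoxE). Their H3K27me3 state was read from a list of 19359 ChIP-seq peaks of wild-type chondrocytes. The cells came from the ribs of newborn CD1 mice, without treatment, and had spent a night in culture after release from the cartilage by collagenase. There was 1 library of DNA precipitated with an H3K27me3 antibody (ChIP, 17237574 filtered tags) and 1 library of input DNA (17004082 filtered tags), grouped by their titles. The antibody tags in the labels are the other way round, with H3K27me3 on the input library. In the peak list, called on the library that the file header names as ChIP, the neural regulators Sox1 and Sox2 and the neural crest regulator Pax3 carried 41.6, 37.6 and 86.9 kb of peaks, and Col2a1 and Acan, the genes of the main cartilage matrix proteins, carried none. With 1 library per group no value had a replicate error and no difference could be tested, so all comparisons below are descriptions of this peak list. How many mice gave the cells is not given in the sources used here.

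Sox proteins bind DNA through an HMG box, and their subgroups are defined by sequence likeness. Sox9 directs the chondrocyte programme from the first condensation of the skeleton onwards, and Sox5 and Sox6, which lack an activation domain of their own, help it to drive cartilage matrix genes. Sox8 and Sox10 are the nearest relatives of Sox9 and are best known from neural crest, glia and melanocytes. Sox13 is the third SoxD gene, and Sox4, Sox11 and Sox12 act in progenitor cells of many embryonic tissues. H3K27me3 is laid down by Polycomb repressive complex 2 (PRC2), most often over the CpG-rich starts of developmental regulators that a cell type keeps silent.

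Of the 9 genes, Sox13 alone carried the mark, where a gene counts as marked when the deposited annotation joins a peak within 5 kb to it. This was 11.1% (95% Wilson interval 1.99 to 43.5%, counting error only), beside 20.7% of all protein-coding genes. By the positions in the gene table, 1 of the 9 had a peak within 5 kb, beside 22.3% of genes, and 2 within 20 kb, beside 33.3%. No cartilage member (Sox5, Sox6 or Sox9) was marked, and 1 of the 6 close relatives was. By subgroup, 0 of 3 SoxC, 1 of 3 SoxD and 0 of 3 SoxE genes were marked. The first gene inside the 5 kb limit was thus Sox13, with a peak within the gene, and the first outside it was Sox12, at 15.9 kb. A peak needed a pileup of at least 9.86 fragments here, against a genome-wide input background of 2.67 fragments, so a weaker mark at the other 8 genes was not detectable at this depth.

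Sox13 (chr1:133382300-133424459, minus strand) held 1 peak of 1.60 kb (chr1:133420054-133421657), which covered 3.81% of the gene. The peak began 2.80 kb inside the gene from its 5′ end and left the 5′ end itself uncovered. Whether it lay over an exon or an intron was not determined. Its pileup (mean number of ChIP fragments covering it) was 10.86, its fold enrichment over input 3.17 and its q-value 0.042. Among all peaks, 51.8% had a lower fold enrichment and 59.9% were narrower. The median peak had a fold enrichment of 3.16 and a width of 1.27 kb. With only peaks of a q-value of at most 0.01, or only peaks of a fold enrichment of at least 3.5, none of the 9 genes remained marked, beside 5.90% and 5.35% of all protein-coding genes. Another 5 peaks lay within 100 kb of Sox13, 4 of them on the side of its 3′ end. The closest, 23.7 kb away and 1.10 kb wide, lay over Ren1, the gene of renin. The annotation also joins this peak to Ren2, a near-identical copy, so which of them it belongs to is uncertain.

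The cartilage members stood far from any peak. Sox9 (chr11:112782210-112787757) lay 1315 kb from the nearest peak on one side and 1380 kb from the nearest on the other, and had 0 peaks within 1 Mb. A nearest peak over 1 Mb away was found for 7.79% of protein-coding genes. Sox5 (chr6:143828425-144782287, minus strand) lay 568.2 kb from a peak on the side of its 3′ end and 606.7 kb from one on the side of its 5′ end. Sox6 (chr7:115470872-116040776, minus strand) lay 636.5 kb and 627.8 kb from peaks on these sides. Sox5, Sox6 and Sox9 were farther from a peak than 86.8%, 87.8% and 94.3% of all protein-coding genes, whose median distance was 64.6 kb. A nearest peak more than 500 kb away was found for all 3 cartilage members, for 0 of the 6 relatives and for 14.9% of protein-coding genes. With only peaks of a q-value of at most 0.01 it was found for 2 of the 6 relatives as well (Sox11 and Sox13), beside 46.5% of protein-coding genes under the same threshold.

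**Figure D1:**
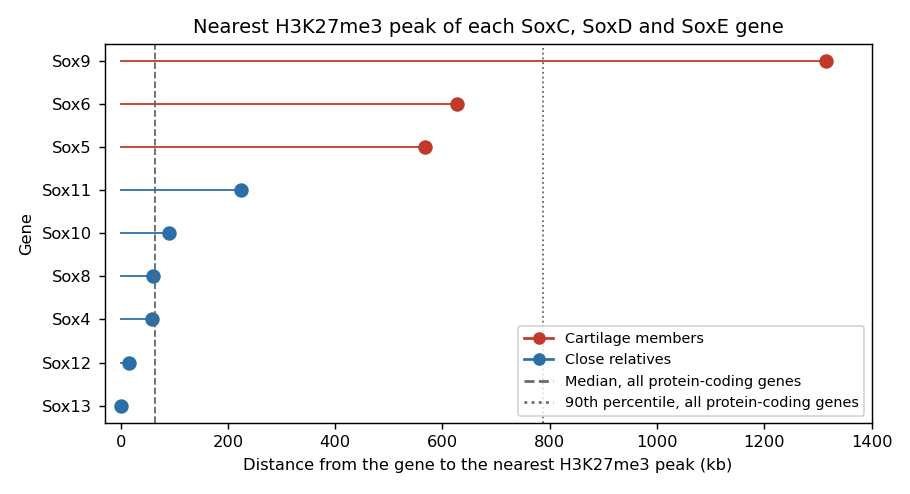
Distance in kb from each of the 9 genes to the nearest H3K27me3 peak, with 1 point per gene (0 for a peak over the gene) and no error bars because there was 1 ChIP library. The 3 cartilage members sit between 568.2 and 1315 kb and the 6 relatives between 0 and 223.8 kb, with the median (64.6 kb) and the 90th percentile (786.5 kb) of all protein-coding genes as vertical lines.

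Genes differ in length, and so in the room they give to a peak. Sox5 spans 954 kb and Sox6 570 kb, and neither held a peak anywhere in the gene. Of the 227 protein-coding genes of 500 kb or more, 54.6% were marked, and 17.6% had their nearest peak more than 500 kb away. Sox9 is a short gene of 5.55 kb. Of the 7741 genes under 10 kb, 17.5% were marked and 11.2% had no peak within 1 Mb. In both length classes, distances like those of the cartilage members were found in the smaller share of genes.

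Each cartilage member lay in a wide interval without any peak, made up of the distances above on both sides and the gene itself. The interval around Sox9 measured 2.70 Mb (chr11:111467452-114167592, from the end of one peak to the start of the next), that around Sox5 2.13 Mb (chr6:143260234-145389029), and that around Sox6 1.83 Mb (chr7:114834336-116668594). Among protein-coding genes without a peak over them, 84.1%, 80.3% and 77.5% lay in a shorter interval, and the median was 605 kb. These ranks are over genes of all lengths. An interval includes the gene, so those of Sox5 and Sox6 could not be shorter than 954 and 570 kb. The interval of Sox9 held 9 other protein-coding genes, with Slc39a11, Sstr2, Cog1 and Sdk2 among them. That of Sox5 held 5, Bcat1 and Etfrf1 included, and that of Sox6 held 6, which included Pik3c2a, Plekha7 and Nucb2. The neighbours thus shared the peak-free stretch with the Sox gene. The share of each interval in which reads could be placed was not measured.

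The 6 peaks that ended these intervals were 0.810 to 1.45 kb wide, beside a median of 1.27 kb over all peaks, with fold enrichments of 2.96 to 3.38 and q-values of 0.0184 to 0.0988. The peak on the 5′ side of Sox5 overlapped Lmntd1, and the one on the 3′ side of Sox6 lay in Insc, a gene of oriented cell division. The 2 peaks beside Sox9 had no protein-coding gene within 100 kb.

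The relatives lay nearer to peaks, and each had its own surroundings. Sox12 (chr2:152393611-152398046, minus strand) was 15.9 kb from a peak 0.850 kb wide (3.48-fold enriched, q-value 0.011), which lay 225 bp from Nrsn2, a neuronal membrane protein gene. On the other side of Sox12 the nearest peak was 59.8 kb away at the beta-defensin gene Defb23. There were 74 peaks within 1 Mb of Sox12, and 94.9% of protein-coding genes had fewer.

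Sox4 (chr13:28948919-28953699, minus strand) had a peak on each side at almost the same distance, 59.1 and 59.8 kb. The peak at 59.8 kb (chr13:28881320-28889166) had the highest fold enrichment and width of the 18 peaks nearest to the 9 genes on either side. It was 7.85 kb wide and 3.64-fold enriched (pileup 12.84 fragments, q-value 0.005). It overlapped the long non-coding RNA gene 2610307P16Rik by 4103 bp and lay 388 bp from another, Gm34639, and no symbol was joined to it in the deposited annotation. Of all peaks, 96.4% had a lower fold enrichment and 94.8% were narrower. The peak on the other side was weaker (2.98-fold, q-value 0.0919).

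Sox11 (chr12:27334268-27342718, minus strand) was the most isolated relative when all peaks were counted, but not with only peaks enriched at least 3.5-fold. Its nearest peak lay 223.8 kb away, wholly within the long non-coding RNA genes Gm20187 and Gm30401, and was 1.45 kb wide (3.52-fold, q-value 0.011). On the other side no peak occurred for 1303 kb, up to the flank of Rnaseh1. Its peak-free interval of 1.53 Mb was shorter than those of the cartilage members and longer than those of the other relatives. Of protein-coding genes without a peak over them, 74.3% lay in a shorter interval than Sox11, beside 77.5% for Sox6.

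Sox8 (chr17:25565893-25570686, minus strand) lay 61.1 kb from a 2.88-fold enriched peak (q-value 0.076). Within 100 kb it had 5 peaks, all on the side of the somatostatin receptor gene Sstr5. Sox10 (chr15:79154913-79164490) lay 90.4 kb from a 3.25-fold enriched peak that overlapped Slc16a8 (q-value 0.0306). On its other side a peak of 2.48 kb, 108.4 kb away and 474 bp from the galanin receptor gene Galr3, was enriched 3.49-fold (q-value 0.00771). Both SoxE relatives thus lay nearer to a peak than Sox9.

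Within 250 kb the groups did not overlap when all peaks were counted. The cartilage members each had 0 peaks, while Sox11 had 3, Sox10 had 6, Sox4 had 9, Sox13 had 12, and Sox8 and Sox12 had 18 each, and a peak within this distance was found for 74.8% of protein-coding genes. Within 100 kb, 5 of the 6 relatives and none of the cartilage members had a peak, beside 57.6% of protein-coding genes. With only peaks of a q-value of at most 0.01 it was Sox4 alone, beside 22.3% of genes. It was Sox4 and Sox13 with only peaks enriched at least 3.5-fold, beside 20.4%. Within 1 Mb the order was less clear, as Sox9 had 0 peaks, Sox5 7 and Sox6 26, against 6 to 74 in the relatives. The separation by distance rested in part on weaker peaks. With only peaks of a q-value of at most 0.01, 3 of the 6 relatives had no peak within 250 kb, like the cartilage members, with nearest peaks at 301.0 kb (Sox12), 506.7 kb (Sox13) and 4163 kb (Sox11), and 62.0% of protein-coding genes had none within this distance. With only peaks of a fold enrichment of at least 3.5, 3 of the 6 had none either, namely Sox8 (272.0 kb), Sox12 (301.0 kb) and Sox10 (341.8 kb), beside 64.7% of protein-coding genes. Under the threshold on q-value the nearest peak of Sox11 was also farther than those of Sox6 (810.6 kb), Sox5 (1414 kb) and Sox9 (1592 kb). With the other 3 thresholds on peaks the cartilage members remained the farthest.

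**Figure D2:**
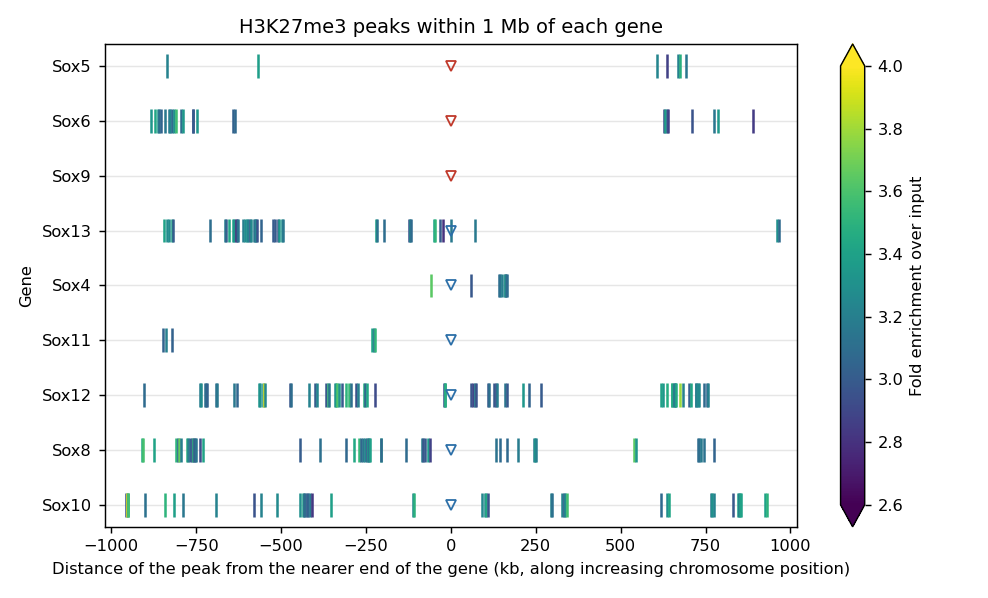
H3K27me3 peaks within 1 Mb of each of the 9 genes, placed by their distance in kb from the nearer end of the gene, with 1 tick per peak coloured by its fold enrichment over input and an open triangle for the gene (red for cartilage members, blue for relatives). Sox9 has 0 ticks, Sox5 and Sox6 have none within 250 kb, and Sox12 has 74.

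The starts of these genes were then compared with their sequence, since CpG-rich starts are where PRC2 most often acts. RefSeq sequences (GRCm38.p6) of the 250 bases before an annotated start were available for 7 of the 9 genes, in 12 windows because Sox6 had several starts. The windows of Sox4, Sox8, Sox11 and Sox12 began directly before the outermost base of the gene and held 11, 18, 17 and 35 CG dinucleotides (letters C then G; a CG reads the same on both strands), against a median of 6 over 32851 windows of all genes. At least as many CG were found in 35.6%, 21.7%, 23.5% and 2.97% of all windows. All 4 windows thus held more CG than the median window, Sox4 with a GC content of 50.8% (median 52.4%), and 0 of their bases lay under a peak. Among the Sox genes outside the 3 subgroups, Sox21 and Sox14, both of the SoxB2 subgroup, had 17 and 23 CG in this window and all 250 bases under a peak, as had Sox1 with 29 CG. Sox2 (27 CG), also marked, had 0 bases of the window under a peak. So had the marked gene Sox30 (23 CG), but its window belongs to a start inside the gene. An unmarked gene has no peak within 5 kb, so its window is uncovered by definition, and the numbers of CG describe these starts without a comparison of marked and unmarked genes. The windows are shown for 3 unmarked genes and 2 marked genes whose window was covered, 5′ to 3′ on the strand of the gene, with CG in capitals. Sox11 lies at chr12:27342719-27342968 (minus), Sox8 at chr17:25570687-25570936 (minus), Sox12 at chr2:152398047-152398296 (minus), Sox21 at chr14:118237031-118237280 (minus) and Sox14 at chr9:99876171-99876420 (minus).
Sox11: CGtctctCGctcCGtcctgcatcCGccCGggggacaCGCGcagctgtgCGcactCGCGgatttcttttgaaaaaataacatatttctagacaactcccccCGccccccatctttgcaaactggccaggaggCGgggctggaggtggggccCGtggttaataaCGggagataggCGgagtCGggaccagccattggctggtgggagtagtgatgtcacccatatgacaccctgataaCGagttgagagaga
Sox8: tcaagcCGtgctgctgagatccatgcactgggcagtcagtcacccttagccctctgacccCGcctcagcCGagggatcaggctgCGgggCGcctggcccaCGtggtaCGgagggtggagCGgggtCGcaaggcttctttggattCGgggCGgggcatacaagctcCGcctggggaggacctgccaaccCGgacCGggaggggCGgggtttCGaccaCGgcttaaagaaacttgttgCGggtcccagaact
Sox12: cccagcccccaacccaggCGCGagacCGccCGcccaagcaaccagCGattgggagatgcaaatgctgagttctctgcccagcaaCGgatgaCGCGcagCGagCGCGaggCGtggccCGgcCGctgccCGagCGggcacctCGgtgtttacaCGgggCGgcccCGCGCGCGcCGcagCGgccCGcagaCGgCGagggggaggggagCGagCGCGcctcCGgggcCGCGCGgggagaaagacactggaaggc
Sox21: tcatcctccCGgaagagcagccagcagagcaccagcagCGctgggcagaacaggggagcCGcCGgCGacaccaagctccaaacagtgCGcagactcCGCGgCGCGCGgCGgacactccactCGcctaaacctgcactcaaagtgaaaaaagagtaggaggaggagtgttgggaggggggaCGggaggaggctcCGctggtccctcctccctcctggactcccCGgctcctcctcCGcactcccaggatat
Sox14: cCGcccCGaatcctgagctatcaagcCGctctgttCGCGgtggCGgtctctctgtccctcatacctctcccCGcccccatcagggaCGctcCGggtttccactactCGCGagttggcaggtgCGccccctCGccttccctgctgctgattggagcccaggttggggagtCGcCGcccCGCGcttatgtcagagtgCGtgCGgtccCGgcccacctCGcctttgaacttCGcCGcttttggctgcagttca

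The start of Sox13 in this table held 31 CG and lay 2.56 kb from the peak inside the gene. The windows of Sox5 and Sox6 belong to starts inside the gene and cannot be set beside the outermost starts above. That of Sox5 held 3 CG, and the 6 of Sox6 held 1 to 10 CG.

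The rest of the Sox family gave the contrast. Of the 11 other Sox genes, 9 were marked (81.8%, 52.3 to 94.9%), beside the 1 of 9 genes above and 20.7% of all protein-coding genes. All SoxB genes were marked, namely Sox1, Sox2 and Sox3, which keep neural progenitors, and the SoxB2 genes Sox14 and Sox21. All SoxF genes (Sox7, Sox17 and Sox18, regulators of endothelium and endoderm) and Sox30 of the testis were marked as well. Sox15 and Sry were not, and Sry lies on the Y chromosome, where the list held no peak. Since the members were picked with earlier results of this list known, the contrast is described and not tested.

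The summed peak length was 41.6 kb at Sox1, 37.6 kb at Sox2, 35.9 kb at Sox14, 23.0 kb at Sox21, 20.3 kb at Sox17, 16.1 kb at Sox7, 6.71 kb at Sox18 and 5.88 kb at Sox30, against 1.60 kb at Sox13. Sox3, with 0.896 kb, lay below Sox13. Sox14, Sox17 and Sox21 lay entirely under 1 peak each. At least 40% of the gene was covered in 7 of the 9 marked genes. The exceptions were Sox3, whose only peak of 0.896 kb lay 4.66 kb away, and Sox30, with 5.55% covered. The highest fold enrichment per gene was 3.23 to 3.71, beside 3.17 at Sox13. Single peaks of Sox7 (0.623 kb) and Sox30 (1.21 kb the wider of 2) were narrower than the peak of Sox13. At Sox2 the 250 bases before the start lay between a peak of 11.0 kb and one of 26.6 kb, 221 bp from the nearer of them. With only peaks of a q-value of at most 0.01, 4 of the 9 kept a peak (Sox1, Sox2, Sox7 and Sox21), beside 5.90% of all protein-coding genes.

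**Figure D3:**
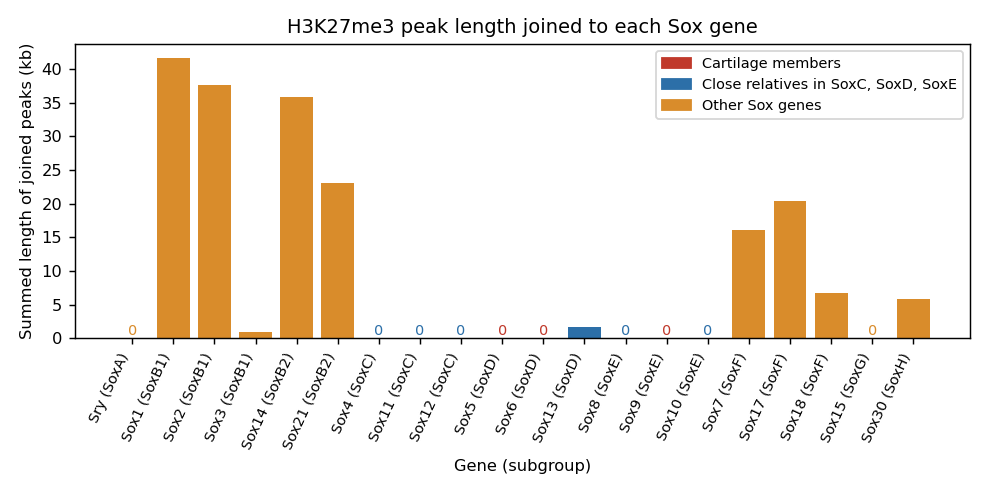
Summed length in kb of the H3K27me3 peaks joined to each of the 20 Sox genes in the deposited annotation, with 1 bar per gene (0 where no peak was joined) and the subgroup in brackets. Sox13 with 1.60 kb is the only bar above 0 among SoxC, SoxD and SoxE, while Sox1 reaches 41.6 kb.

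**Figure D4:**
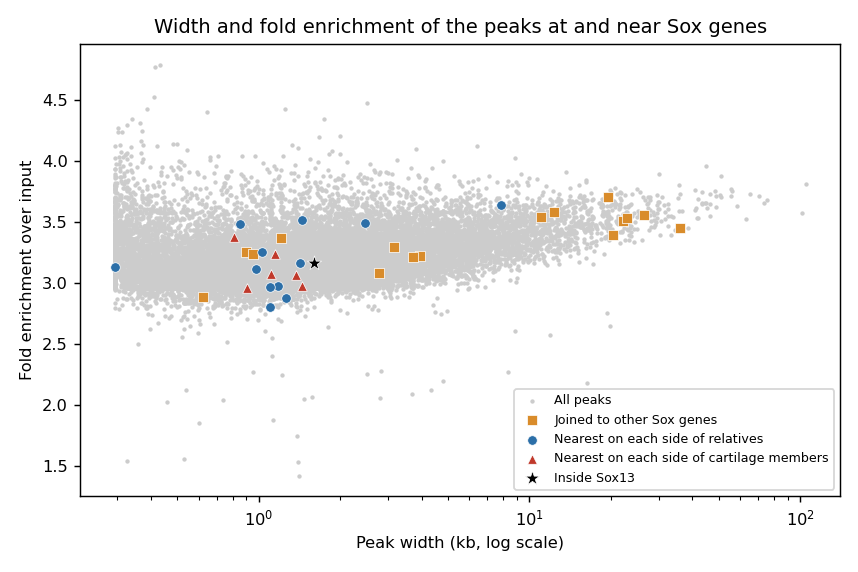
Width in kb (log axis) and fold enrichment over input of all 19359 peaks in grey, with the peak inside Sox13, the nearest peak on each side of the 9 genes, and the peaks joined to other Sox genes marked. The peak of Sox13 (1.60 kb, 3.17-fold) lies in the dense middle of the list, and the coloured peaks of 10 kb or more belong to other Sox genes.

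Genes that work with these factors were read from lists chosen by function. None of the 16 cartilage matrix genes that Sox9, Sox5 and Sox6 are known to serve was marked, beside 20.7% of all protein-coding genes, with Col2a1 (type II collagen), Acan (aggrecan), Matn1 and Comp among them, and their median distance to a peak was 113.7 kb. Of 11 chondrocyte markers 0 were marked, but only Sox9 and Ucma among them were not already in the matrix list. Of 16 regulators of chondrocyte fate, 8 were marked, beside the same 20.7%. They were Pax1, Pax9 and Nkx3-2, which act in the sclerotome before cartilage forms, Barx1, Barx2, Runx3, Twist1 and Foxa2. Pax1 carried 33.8 kb of peaks in 3 peaks and Barx1 31.9 kb in 2. Runx2, Mef2c, Trps1 and Gli3 were not marked.

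Other genes of the tissues in which Sox10, Sox4 and Sox11 are best known were read in the same way. Of 19 genes of neural crest, glia and melanocytes, 11 were marked (57.9%), beside 20.7% of protein-coding genes. Long summed peaks were found at Pax3 (86.9 kb), Tfap2a (46.3 kb), Olig2 (43.6 kb) and Foxd3 (23.4 kb), all transcription factor genes. Dct and Gjb1, which encode an enzyme of pigment synthesis and a gap junction protein, carried 3.02 and 4.12 kb, and Pou3f1, Egr2 and Mbp carried 17.1, 5.37 and 0.594 kb. Mitf, Erbb3 and Ret had no peak within 5 kb, and neither had Sox10. Of 10 neuronal genes, 8 were marked (80.0%), beside the same 20.7%, with Prox1 (37.6 kb), Neurog2 (26.7 kb) and Neurog1 (25.0 kb) first, and Pou3f2, Neurod1, Tubb3 and Stmn2 also among them, while Dcx and Map2 were not.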

How the data were processed

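Chromatin of wild-type primary rib chondrocytes was cut enzymatically, and ChIP and input DNA were sequenced (1 library each, grouped by title). Per the labels, CASAVA 1.8.4, Bowtie2, MACS2 and the build mm10 (GRCm38) were used. Per the file headers, the authors trimmed reads, removed duplicates and called broad peaks with MACS 2.1.0.20140616 (fragment length 294 bp), scaling the larger library to the smaller. The deposited pileup is a coverage signal (ChIP fragments per base, averaged within a peak). The deposited fold enrichment is a ratio of pileup to local input, with 1 added to each. Q-values were deposited on the −log10 scale as peak averages, with a highest value of 0.0991. The header gives a q-value cutoff of 0.05, but 7588 peaks exceeded it on average, and the cutoff for linked broad regions is not given in the sources used here. P-values were not used. The authors joined peaks to Ensembl genes within 5 kb, with a tool not given in the sources used here.

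All 19359 peaks had identical values in both deposited tables. Of 4987 deposited gene symbols (entries split at semicolons), 4929 were matched to the RefSeq gene table. A gene was marked when the annotation joined a peak to its symbol. Distances and peak-free intervals used the gene table, over 21631 protein-coding genes on chromosomes with a peak. That table holds no exons or strands, and strands came from the promoter table, which matched 7 of 9 genes. Protein sequences were not used here. No column outside the series was used. The interval functions were tested on simulated data, with 200 of 200 genes recovered (Python 3.11.15, pandas 2.3.3, SciPy 1.17.1).

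The members and gene lists were chosen with earlier results of these data known. The genes named are the 9 members, marked genes of each list with up to 4 unmarked ones, genes at the peaks nearest to a member, and genes sharing a peak-free interval, the last chosen after their positions were seen. Some listed genes are counted but not reported here by name. Alternatives were thresholds on q-value, fold enrichment and width, the rule of assignment, the reference point and the window.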

Additional observations from a re-analysis of the deposited data

How the results depend on the processing

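No paired analysis was possible because 1 library stood for each condition, and for the same reason no library could be left out. Where a value below moved, the cause was not tested beyond the construction of the alternative, as fewer peaks must give fewer marked genes. The 9 rules tried gave no peak to Sox5, Sox6 or Sox9, and could not have done so. Each rule only removed peaks or reached at most 20 kb, while the nearest peaks of these genes lay 568.2 kb or more away. The marked count of the 9 genes, and of the 6 relatives, was 0 with a q-value of at most 0.01, 0 with a fold enrichment of at least 3.5, 0 where the peak had to cover the 5′ end, and 2 (Sox12 and Sox13) with a reach of 20 kb. It stayed at 1 under the other 5. The number of peaks at the members followed, with 0, 0, 0 and 3, and their summed length was 0, 0, 0 and 3007 bp, against 1604 bp.

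The marked share of all protein-coding genes was 16.4% with a q-value of at most 0.05, 5.90% with at most 0.01, 5.35% with a fold enrichment of at least 3.5 and 17.0% (16.95) with a width of at least 1 kb. It was 15.5% for overlap of the gene, 14.3% for an overlap of at least 500 bp, 22.3% within 5 kb by the gene table, 33.3% within 20 kb and 4.61% for cover of the 5′ end (17274 genes with a strand).

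The median distance of the 9 genes to a peak was 90.4 kb. It was 506.7 kb with a q-value of at most 0.01, 301.0 kb with a fold enrichment of at least 3.5, and 65.85 kb from the 5′ end over the 7 genes with a strand. Under the first of these, Sox11 moved beyond the cartilage members. Members with a peak within 100 kb numbered 5, which became 1 (Sox4) with a q-value of at most 0.01 and 2 (Sox4 and Sox13) with a fold enrichment of at least 3.5. The share of all protein-coding genes went from 57.6% to 22.3% and 20.4% in the same steps. Depth sets what could be called, and no called region had a pileup below 9.86 fragments.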

Other observations

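The shares below stand beside the 20.7% of all protein-coding genes that were marked, and with 6 to 8 genes a list they are coarse. Of 8 skeletal muscle markers, 6 were marked, namely Pax7 (62.8 kb of peaks), Myh3 (11.4 kb), Acta1 (8.95 kb), Myod1 (8.57 kb), Ckm (7.65 kb) and Myf5 (0.370 kb), and Myog and Des were not. Of 6 glia and neuron markers 4 were marked, with Mbp, Tubb3 and Rbfox3 among them, and Rbfox3 carried 40 peaks with a summed length of 95.6 kb. Of 6 blood markers 3 were marked (Ptprc and Cd3e among them), of 6 osteoblast markers 2 (Ibsp and Alpl), of 6 fibroblast and perichondrium markers 2 (Col1a1 and Thy1), and of 6 endothelium markers 1 (Kdr). The 2 peaks of Col1a1, the gene of type I collagen, had a summed length of 7.94 kb and a highest fold enrichment of 3.57, while Col1a2 and Col3a1 had no peak within 5 kb. Markers were listed with earlier results known, and the share of each cell type in the culture was not measured.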
